A study of Mus musculus with 13 samples.

Results

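The 9 isoform genes of cytochrome c oxidase, the last enzyme of the mitochondrial respiratory chain, were examined for the balance between their tissue isoforms in skeletal muscle that carries uncoupling protein 1 (UCP1). They were read from all probes, other than control spots, whose gene name on the array was Cox6a2, Cox7a1 or Cox8b (the muscle isoforms), Cox6a1, Cox7a2, Cox7a2l or Cox8a (the ubiquitous forms), or Cox4i1 or Cox4i2. This gave 12 probes for 9 genes, out of 55681 probes for 34797 named genes, and all 9 were among the 17257 genes measured. The genes were picked with their difference between the genotypes known, so these differences are given as a description and without p-values.

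The samples were gastrocnemius muscle of male C57BL/6J mice, 7 with a UCP1 transgene (UCP1 transgenic) and 6 wild-type littermates. The labels give an age of 12 weeks, and both genotypes ate the same purified low fat diet for 12 weeks. Whether that age is the one at the start of the diet or at sampling is not settled by these values. The titles place the transgene in skeletal muscle, and its promoter is not given in the sources used here. Each mouse was labelled with Cy5 and hybridised to 1 two-colour array against a Cy3 pool of samples, so values are log2 ratios to that pool (0 is the level of the pool) and differences are UCP1 transgenic minus wild type on the log2 scale.

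Cytochrome c oxidase, or complex IV, passes electrons from cytochrome c to oxygen and pumps protons across the inner mitochondrial membrane. Its catalytic core is encoded by mitochondrial DNA, and the nuclear subunits around it include several that exist as alternative gene products. In mice COX6A, COX7A and COX8 each have a form found in most tissues and a form that dominates in heart and skeletal muscle and replaces it in the enzyme as muscle matures. COX7A1 and COX8B are also abundant in brown fat, and COX4I2 replaces COX4I1 mainly in lung and under low oxygen. COX7A2L is a relative of COX7A2 described as joining complex III to complex IV in supercomplexes. Whether it does so in the strain used here was not examined. UCP1 is the proton carrier of brown fat, which short-circuits the proton gradient past ATP synthase.

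The genes were read through 60-base probes, and no run longer than 8 bases was shared between probes of different genes. The starts of the genes are shown first for the COX7A and COX8 pairs, because in both pairs the muscle gene was lower and the ubiquitous gene higher in UCP1 transgenic muscle, and both genes of the pair have a RefSeq window. The sequences are the 250 bases before the annotated start, 5′ to 3′ on the strand of the gene, from RefSeq on GRCm38.p6, with CpG dinucleotides in capitals.
Cox7a1 (chr7:30183921-30184170, plus strand): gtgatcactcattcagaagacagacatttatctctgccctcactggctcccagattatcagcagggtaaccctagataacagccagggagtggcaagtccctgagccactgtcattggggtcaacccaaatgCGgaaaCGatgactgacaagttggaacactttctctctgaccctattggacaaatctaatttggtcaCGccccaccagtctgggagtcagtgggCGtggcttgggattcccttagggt
Cox7a2 (chr9:79759854-79760103, minus strand): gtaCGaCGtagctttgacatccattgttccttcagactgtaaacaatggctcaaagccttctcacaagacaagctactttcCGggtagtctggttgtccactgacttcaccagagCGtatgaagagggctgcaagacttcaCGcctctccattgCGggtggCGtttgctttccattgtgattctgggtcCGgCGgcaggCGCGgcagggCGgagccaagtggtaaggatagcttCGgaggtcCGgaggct
Cox8b (chr7:140900447-140900696, minus strand): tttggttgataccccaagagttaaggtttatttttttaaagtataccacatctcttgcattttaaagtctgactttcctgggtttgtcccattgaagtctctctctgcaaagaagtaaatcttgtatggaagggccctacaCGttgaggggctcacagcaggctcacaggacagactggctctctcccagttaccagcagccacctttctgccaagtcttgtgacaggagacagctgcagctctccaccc
Cox8a (chr19:7217617-7217866, minus strand): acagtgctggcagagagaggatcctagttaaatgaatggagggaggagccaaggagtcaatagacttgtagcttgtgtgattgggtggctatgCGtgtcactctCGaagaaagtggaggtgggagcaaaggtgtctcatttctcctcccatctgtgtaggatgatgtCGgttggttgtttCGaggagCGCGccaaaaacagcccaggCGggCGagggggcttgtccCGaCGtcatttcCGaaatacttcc

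The stretch before the muscle gene Cox7a1 holds 4 CpG dinucleotides and that of its ubiquitous partner Cox7a2 holds 14. The stretch before the muscle gene Cox8b holds 1 and that of Cox8a holds 11. RefSeq windows of 300 bases, 250 before and 50 after the start, matched 6 of the 9 genes, all but Cox6a2, Cox4i1 and Cox4i2. The number of CpG dinucleotides relative to that expected from the bases (observed over expected) was 0.333 for Cox7a1 and 0.115 for Cox8b, against 0.833 for Cox7a2, 0.842 for Cox8a, 0.851 for Cox7a2l and 1.07 for Cox6a1. The median over all 32851 windows was 0.384. Of the 3 muscle genes, the 2 with a window lay below that median and the 4 ubiquitous genes above it, with 81.8% to 97.3% of all windows below each ubiquitous gene.

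Motifs were searched on both strands of the 6 windows, and matches of different motifs did not overlap. The E-box CANNTG, which muscle regulators such as MyoD bind, was matched once in Cox7a1, Cox7a2, Cox7a2l and Cox8a, 2 times in Cox8b and not in Cox6a1, and 72.3% of all windows hold it. The core CGGAAG of ETS factors such as GABP, known activators of respiratory chain genes, was matched in Cox6a1, Cox7a2 and Cox8a, and 16.9% of all windows hold it. The core GCATGCG of the site of NRF1, another such activator, was matched in Cox6a1, on both strands at 1 place, and 3.58% of all windows hold it. TATAAA was matched in Cox8b, 5 bases into the transcript, against 13.6% of all windows, and the MEF2 motif in none of the 6, against 3.19% of all windows. A match describes letters in these windows and not a site in use.

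**Figure D1:**
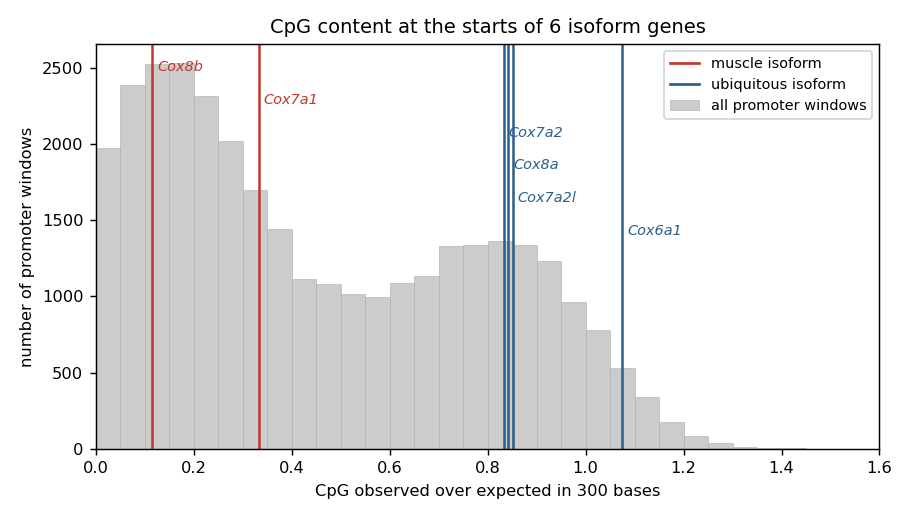
CpG observed over expected in 300 bases around the starts of 6 isoform genes (vertical lines, muscle isoforms in red and ubiquitous isoforms in blue) over the distribution of all 32851 promoter windows (grey, number of windows per bin). The muscle genes Cox8b and Cox7a1 lie at 0.115 and 0.333, and the 4 ubiquitous genes lie between 0.833 and 1.07.

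Each array had 20643 to 24036 of its 55681 probes (37.1% to 43.2%) well above background, no spot was saturated, and all 12 isoform probes were well above background on all 13 arrays. The number of arrays limits the precision. Ucp1 itself read -0.20 to 0.85 (log2 ratio) in the 7 UCP1 transgenic mice, against -4.23 to -2.82 in 5 wild-type mice. The array labelled wild type 4 read 0.45, inside the transgenic range and unlike the other wild-type arrays. Its mean over the 5 measured brown adipocyte markers, 0.46, was also the highest of the wild-type arrays, but rests mainly on Cidea. Leaving the array out moved the difference of Cidea from 0.70 to 1.27. It moved Dio2 from 0.29 to 0.39, Zic1 from -0.10 to -0.07, Otop1 from -0.10 to -0.04 and Ebf2 from 0.154 to 0.152. The cause of the Ucp1 value of the array labelled wild type 4 was not tested. This array is kept under its label, and the differences of the isoform genes and pairs are also given without it. For the other lists the counts without it are given where they change. Of the 7 skeletal muscle markers all were measured. Across all genes the fit called 5695 of 17257 (33% of genes, adjusted p under 0.05), 16.9% higher and 16.1% lower in UCP1 transgenic muscle.

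The 3 muscle isoforms did not move as a group. Cox6a2 was 1.96-fold higher in UCP1 transgenic muscle, while Cox7a1 was 1.53-fold lower and Cox8b 1.52-fold lower. Of the 9 genes, 3 were called higher (Cox6a2, Cox7a2 and Cox8a) and 2 lower (Cox7a1 and Cox8b), beside the 16.9% and 16.1% of all genes. Without the array labelled wild type 4 the counts were 4 higher and 2 lower, beside 16.7% and 15.9% of all genes. Since the genes were picked on this contrast, nothing is read from those counts. The median difference was -0.61 over the 3 muscle isoforms and 0.20 over the 4 ubiquitous forms, beside -0.0010 over all genes.

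Cox6a2 encodes the heart and muscle form of COX6A, a subunit at the dimer interface of the enzyme. Its log2 ratio was lowest at 0.20, in the middle at 0.36 and highest at 0.70 in the 7 UCP1 transgenic mice, against -0.69, -0.59 and -0.45 in the 6 wild-type mice. Every transgenic mouse lay above every wild-type mouse, and the lowest transgenic and highest wild-type arrays stood well apart. The means were 0.39 ± 0.15 and -0.58 ± 0.09 (SD, n = 7 UCP1 transgenic and 6 wild-type mice), a difference of 0.97 ± 0.07 (SE). Groups did not overlap in 14.7% of all genes, 7.47% with the transgenic mice higher and 7.26% lower, beside 2 isoform genes each way. The difference was 0.97 without the array labelled wild type 4 and 0.89 to 0.99 within each of the 4 slides.

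The array labelled wild type 4 read with the wild-type mice for Cox6a2, Cox7a1, Cox8b and Cox8a, as the plot of values by array shows. Its value for Cox6a1, the ubiquitous partner of Cox6a2, was instead the highest of all 13. Cox6a1 read -0.20, 0.02 and 0.07 (lowest, median, highest) in UCP1 transgenic mice, against -0.39, -0.21 and 0.21 in wild-type mice, so the groups overlapped. The difference was 0.16 ± 0.09 (SE; 95% interval -0.03 to 0.34) and was not called. Without the array labelled wild type 4 it was 0.24 and called. On slide 3, where that array is the 1 wild-type array, the difference was -0.15.

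**Figure D2:**
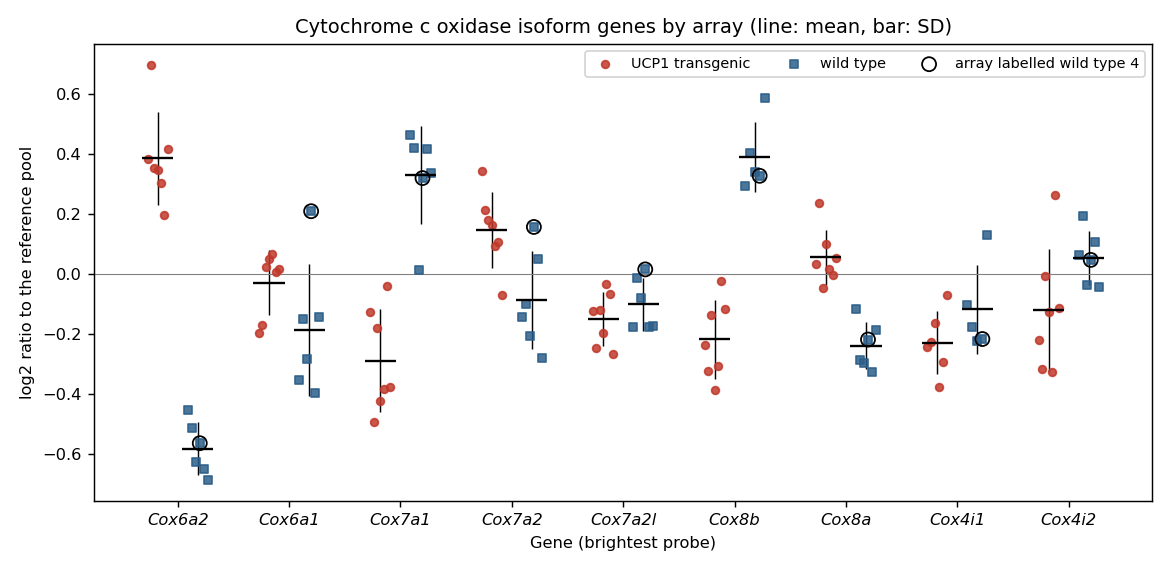
Log2 ratio to the reference pool (vertical axis) of the 9 isoform genes in each UCP1 transgenic mouse (red circles, left) and each wild-type mouse (blue squares, right), with mean and SD, and with a ring around the array labelled wild type 4. The groups do not overlap for Cox6a2, Cox7a1, Cox8b and Cox8a.

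Cox7a1 encodes the muscle form of COX7A. Its log2 ratio was -0.49, -0.37 and -0.04 (lowest, median, highest) in UCP1 transgenic mice, against 0.02, 0.38 and 0.46 in wild-type mice. Every transgenic mouse lay below every wild-type mouse, but narrowly, since wild type 3 read 0.02 and the next wild-type mouse 0.32. The means were -0.29 ± 0.17 in UCP1 transgenic and 0.33 ± 0.16 in wild-type mice (SD, n = 7 and 6), and the difference was -0.62 ± 0.09 (SE). It was -0.62 without the array labelled wild type 4, -0.68 without wild type 3 and -0.77 to -0.40 within slides.

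Cox8b encodes the muscle form of COX8, the smallest subunit, a gene that rodents use and humans have lost. Its log2 ratio was -0.38, -0.23 and -0.02 (lowest, median, highest) in the 7 UCP1 transgenic mice, against 0.30, 0.41, 0.34, 0.33 and 0.59 in wild-type mice 1, 2, 3, 4 and 6. The spot of wild type 5 carried an outlier flag and was left out. No transgenic value reached the lowest wild-type value. The means were -0.22 ± 0.13 and 0.39 ± 0.12 (SD, n = 7 UCP1 transgenic and 5 wild-type mice), and the difference was -0.61 ± 0.08 (SE), -0.62 without the array labelled wild type 4, and -0.67 to -0.51 within slides. In the Cy3 channel, which holds the same pool on every array, Cox8b differed by 0.15 ± 0.03 between the same arrays, and this enters the ratio with its sign turned. With the Cy5 channel alone the difference of Cox8b was -0.46. Both channel values were taken after loess, so neither is free of the other channel.

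These differences depend on how arrays are scaled. With loess the median difference of all genes was -0.0010. With median centring and no loess it was 0.14, 7.55% of genes were called (6.02% higher and 1.53% lower, beside 1 and 0 of the isoform genes), and Cox7a1 and Cox8b were lower by less (-0.25 and -0.24) and no longer called. Relative to the median of all genes, median centring gave 1.23 for Cox6a2, -0.39 for Cox7a1 and -0.38 for Cox8b. The authors' value table gave 1.15 for Cox6a2 and -0.44 for Cox8b. The direction of Cox6a2, Cox7a1 and Cox8b was thus the same under the 5 scalings plotted.

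**Figure D3:**
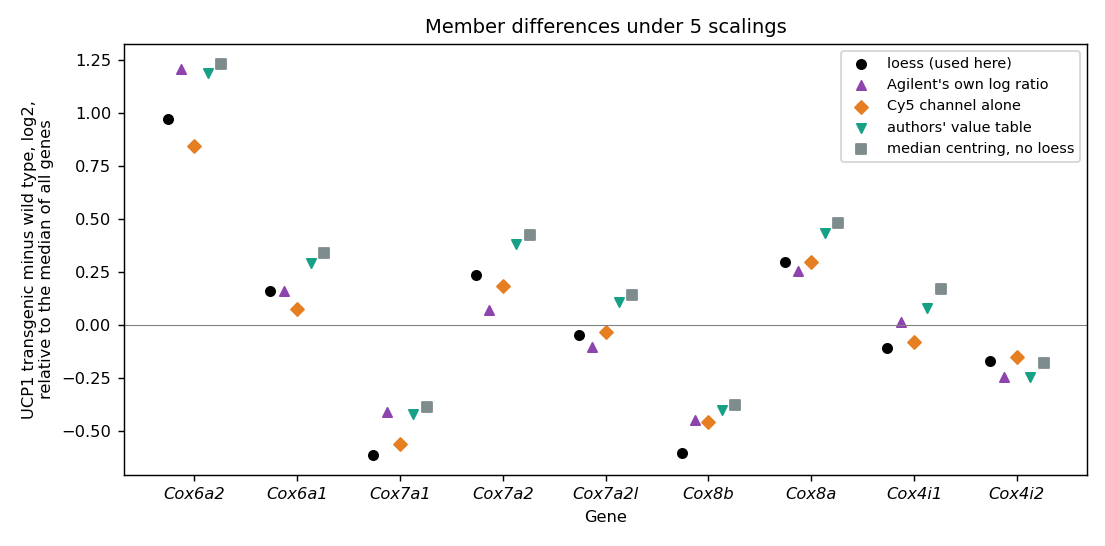
UCP1 transgenic minus wild type (log2, relative to the median difference of all genes, vertical axis) for the 9 isoform genes under 5 scalings of the arrays (symbols). Cox6a2, Cox6a1, Cox7a2 and Cox8a are above 0 and Cox7a1, Cox8b and Cox4i2 below 0 under all 5, while Cox7a2l and Cox4i1 lie on both sides of 0.

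With loess the ubiquitous partners differed by less than the muscle forms, but under median centring, relative to all genes, Cox7a2 (0.42) and Cox8a (0.48) differed by slightly more than Cox7a1 (-0.39) and Cox8b (-0.38). Cox8a, the ubiquitous form of COX8, read -0.05, 0.04 and 0.24 (lowest, median, highest) in UCP1 transgenic mice, against -0.33, -0.25 and -0.11 in wild-type mice. The groups did not overlap. The difference was 0.29 ± 0.06 (SE), 0.30 without the array labelled wild type 4, 0.24 to 0.28 within slides, and 0.45 at the second Cox8a probe. Under median centring it was 0.62 and not called.

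Cox7a2, the ubiquitous form of COX7A, read -0.07, 0.16 and 0.34 in UCP1 transgenic mice, against -0.28, -0.12 and 0.16 in wild-type mice (lowest, median, highest). The groups overlapped, with 4 of 7 transgenic mice above every wild-type mouse. The highest wild-type value, 0.16, was the array labelled wild type 4, and the next was 0.05 in wild type 5. The difference was 0.23 ± 0.08 (SE), and it was the least stable call of the 5. It was lost with Agilent's own log ratio (0.07), the Cy5 channel alone (0.18), median centring (0.56) and slide as a fixed block (0.21), and without any 1 of wild type 1, 3 or 6 or UCP1 transgenic 1. Without the array labelled wild type 4 it was 0.28 and called, and on slide 3 it was -0.03.

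Cox7a2l, the relative of Cox7a2, read -0.27, -0.12 and -0.03 in UCP1 transgenic mice, against -0.18, -0.12 and 0.02 in wild-type mice (lowest, median, highest). The groups overlapped, and the difference was -0.05 ± 0.06 (SE; 95% interval -0.18 to 0.08). Of its other probes, 1 gave 0.15, was dimmer and has annotated coordinates that cover only 5 genomic bases. The remaining probe gave -0.06 and shares a run of 41 bases with the probe used, so these 2 are not independent readings. The difference was -0.03 without the array labelled wild type 4. No direction can be given for this gene.

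Cox4i1, the common form of the COX4 subunit, read -0.38, -0.23 and -0.07 in 6 UCP1 transgenic mice, against -0.10, -0.17, -0.22, -0.22 and 0.13 in wild-type mice 1, 2, 3, 4 and 6. Spots of UCP1 transgenic 6 and wild type 5 carried outlier flags and were left out. The difference was -0.11 ± 0.08 (SE; 95% interval -0.28 to 0.06) and -0.14 without the array labelled wild type 4. It was above 0 with Agilent's own log ratio, median centring and the authors' value table.

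Cox4i2, the lung form, had a dim signal, with a mean log2 Cy5 signal of 7.28 in UCP1 transgenic and 7.43 in wild-type mice. It read -0.32, -0.13 and 0.27 in UCP1 transgenic mice, against -0.04, 0.06 and 0.19 in wild-type mice (lowest, median, highest). UCP1 transgenic 6 read highest of all 13, and 5 of the 7 transgenic mice lay below every wild-type mouse. The difference was -0.17 ± 0.09 (SE; 95% interval -0.35 to 0.0044) and not called, -0.24 and called without UCP1 transgenic 6, and -0.18 without the array labelled wild type 4.

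The balance of a pair was taken within each array as the log2 ratio of the muscle isoform minus that of its ubiquitous partner, so that a shift of a whole array cancels. It describes how far the pair departs from its proportion in the pool and not how many transcripts of each there were. For the COX6A pair the balance was 0.19, 0.33 and 0.87 (lowest, median, highest) in UCP1 transgenic mice, against -0.77, -0.35 and -0.10 in wild-type mice. The difference was 0.81 ± 0.13 (SE), a 1.75-fold shift to the muscle form in transgenic muscle, and the groups did not overlap.

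The COX7A and COX8 pairs shifted the other way. The balance of Cox7a1 over Cox7a2 was -0.71, -0.47 and -0.15 in UCP1 transgenic mice, against 0.16, 0.44 and 0.62 in wild-type mice, a difference of -0.85 ± 0.11 (SE), or 1.80-fold lower in transgenic muscle. The balance of Cox8b over Cox8a was -0.56, -0.27 and -0.02 in 7 UCP1 transgenic mice, against 0.41, 0.63 and 0.77 in 5 wild-type mice, a difference of -0.88 ± 0.10 (SE), or 1.85-fold lower. Neither pair overlapped between the groups. Without the array labelled wild type 4 the differences of the 3 pairs were 0.73, -0.90 and -0.90.

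Median centring, which moved the single genes, gave 0.89, -0.81 and -0.85 for the COX6A, COX7A and COX8 pairs. Agilent's own log ratio gave 1.05, -0.48 and -0.69. For Cox4i2 over Cox4i1 the balance was -0.09, 0.00 and 0.25 in 6 UCP1 transgenic mice, against -0.18, 0.19 and 0.37 in 5 wild-type mice. These groups overlapped, and the difference was -0.12 ± 0.10 (SE), or -0.09 without the array labelled wild type 4.

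**Figure D4:**
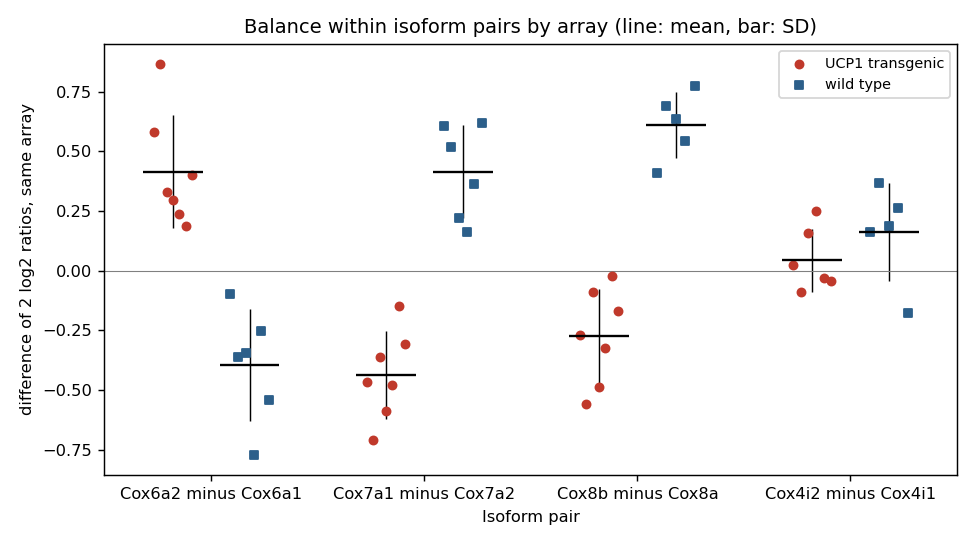
Difference between the log2 ratios of the 2 isoforms on the same array (vertical axis) for 4 pairs, in UCP1 transgenic mice (red circles, left) and wild-type mice (blue squares, right), with mean and SD. The COX6A pair is above 0 in all 7 transgenic mice and below 0 in all 6 wild-type mice, the COX7A and COX8 pairs show the opposite, and the COX4 pair overlaps.

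Within a genotype the isoforms were compared mouse by mouse, which does not use the contrast they were picked on. The largest correlation was between Cox7a1 and Cox8b in the 7 UCP1 transgenic mice, with Pearson's r of 0.73 (exact permutation p = 0.0752, adjusted 0.398) and Spearman's rho of 0.82 (exact permutation p = 0.0341, adjusted 0.341), two-sided over 10 relations computed. Without the 2 mice farthest from the median of Cox7a1, r was 0.67. In the same mice Cox6a2 and Cox7a1 gave r of -0.66 (exact permutation p = 0.0831, adjusted 0.398) and 0.24 without the 2 farthest mice, so that this value rests on those mice. In the 6 wild-type mice the same pair gave r of 0.42 (exact permutation p = 0.442, adjusted 0.684). None of the 10 passed after adjustment. No pair with Cox8b or Cox4i1 was computed in wild-type mice, so the relation of Cox7a1 and Cox8b was not examined there.

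The genes whose values followed each muscle isoform most closely, after removing each group's mean over 12 or 13 arrays, differed between the 3. For Cox7a1 the highest named gene was Ckmt2, the mitochondrial creatine kinase of striated muscle, at r of 0.91, followed among named genes by Slc6a16, Wdr66 and H2afy2 at 0.89. For Cox6a2 the named genes were Wdr34 at 0.92, Apoa1bp at 0.91, Oaz1 at 0.89 and Ippk at 0.88. For Cox8b they were Xkr8 at 0.94, Mpst and Epb4.1l3 at 0.93, and Ciapin1 and Pdcd7 at 0.92. These are the top of 17134 genes over few arrays and are given as a description.

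The rest of complex IV gives the setting of the isoforms. Of 8 measured among 10 other nuclear subunit genes, 0 rose and 3 fell, namely Ndufa4, a subunit once assigned to complex I (-0.56 ± 0.10, SE; limma adjusted p = 0.000224), Cox6c (-0.40 ± 0.07; adjusted p = 0.000193) and Cox5a (-0.27 ± 0.08; adjusted p = 0.0128). That is 3 of 8, close to the 33% of all genes called in either direction, while 16.1% of all genes were called lower. The list's median was -0.18. The catalytic core genes of mitochondrial DNA, named COX1, COX2 and COX3 on the array, all fell, by 0.69 ± 0.10, 0.79 ± 0.06 and 0.80 ± 0.08 (SE; limma adjusted p = 3.43e-05, 5.62e-09 and 2.72e-07). Under median centring none of these 11 genes passed. The median of the 3 core genes there was -0.53 relative to all genes, and that of the 8 nuclear genes -0.03.

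**Figure D5:**
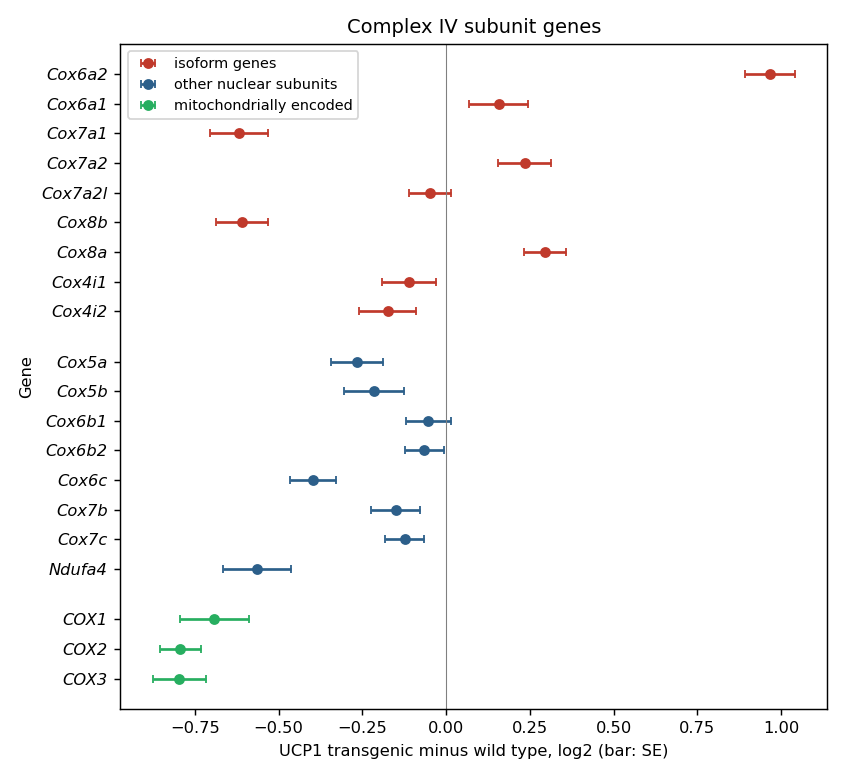
UCP1 transgenic minus wild type (log2, horizontal axis, bar: SE of the limma fit) for the isoform genes (red), the other nuclear subunit genes (blue) and the mitochondrially encoded subunit genes (green) of complex IV. Cox6a2 stands at 0.97, Cox7a1 at -0.62 and Cox8b at -0.61, and COX1, COX2 and COX3 between -0.80 and -0.69.

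Of 23 measured among 26 assembly factor genes, the count was 3 up, 5 down and 15 short of the threshold, and the median difference was -0.06. This too is close to the 33% called over all genes. The risen genes included Sco2, a copper chaperone of the enzyme (0.48 ± 0.07, SE; limma adjusted p = 4.6e-05), and Cox15, which makes its haem A (0.27 ± 0.07; adjusted p = 0.00334). The fallen ones included Higd2a (-0.51 ± 0.09; adjusted p = 0.000251) and Higd1a (-0.34 ± 0.07; adjusted p = 0.000713), hypoxia-induced domain proteins that associate with complex IV. Sco2 alone passed under median centring. Without the array labelled wild type 4 there were 4 up and 4 down.

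Of 15 known or proposed regulators of these genes, 4 rose and 3 fell, beside 33% of all genes called. Under median centring 1 rose, Esrrg, and 0 fell. Esrrg, a nuclear receptor of oxidative muscle, rose by 1.55 ± 0.10 (SE; limma adjusted p = 3.11e-10), with means of 0.58 ± 0.24 in UCP1 transgenic and -0.97 ± 0.12 in wild-type mice (SD, n = 7 and 6). Chchd2, a regulator of Cox4i2 in low oxygen, fell by 0.64 ± 0.08 (adjusted p = 3.93e-06), but differed by -0.25 under median centring and did not pass there (adjusted p = 0.466). The other regulators called higher were Lonp1 (0.35 ± 0.06), Hif1a (0.30 ± 0.08) and Gabpa (0.30 ± 0.08). Cxxc5 (-0.40 ± 0.08) and Mef2c (-0.20 ± 0.06) were also called lower. Ppargc1a, the coactivator of mitochondrial biogenesis (-0.04 ± 0.16), Nrf1 (-0.01 ± 0.08), Esrra (-0.15 ± 0.07) and Mef2a (-0.10 ± 0.06) did not pass.

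Fibre type genes moved beside the isoforms. Of the slow fibre contractile genes, 9 of 9 rose, with a median of 0.79, among them Myh7, the slow myosin heavy chain (1.17 ± 0.16, SE; limma adjusted p = 1.3e-05). Of 12 fast fibre genes, 8 fell and 1 rose, with a median of -0.55. The counts of both lists stand beside 16.9% of all genes called higher and 16.1% lower. Per array, the mean log2 ratio of the slow genes was 0.01 to 0.56 in UCP1 transgenic and -1.03 to 0.03 in wild-type mice. These ranges overlapped. For the fast genes the means were -0.23 to -0.01 in UCP1 transgenic and 0.18 to 0.59 in wild-type mice. Myh4, the fastest myosin of the mouse, fell by 0.74 ± 0.10 (adjusted p = 8.42e-06), and Myh1 rose by 0.62 ± 0.10 (adjusted p = 1e-04). The 9 slow genes and Myh1 passed under median centring too, where no fast fibre gene was called lower. There 6.02% of all genes were called higher and 1.53% lower. In whole muscle fewer fibres of a type and less RNA per fibre cannot be told apart, and the part of fibre type in the isoform values was not tested.

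Markers of some other cells moved as well. Of 7 measured among 8 white adipocyte markers, 6 rose (median 0.81), and their mean log2 ratio per array was -0.23 to 0.42 in UCP1 transgenic mice, against -0.67 to -0.03 in wild-type mice, where -0.03 was the array labelled wild type 4. Of 5 measured among 9 brown adipocyte markers, 1 rose, and Elovl3, Kcnk3, Lhx8 and Cpn2 were not among the measured genes. The mean of the 5 was -0.20 to 0.02 in UCP1 transgenic mice, against -0.52 to 0.46 in wild-type mice, where 0.46 was the array labelled wild type 4. Without that array 2 rose, Dio2 and Cidea, and Cidea differed by 1.27 (adjusted p = 0.000106) in place of 0.70 (adjusted p = 0.25). Skeletal muscle markers fell in 5 of 7 (median -0.54). Of the 7, Myh4 and Actn3, which fell, are also in the fast fibre list, and Ckm (-0.03) and Ckmt2 (-0.20) were not called. The per-array means of the 7 were -0.42 to -0.05 in UCP1 transgenic and 0.14 to 0.41 in wild-type mice. The value of 0.14 was again the array labelled wild type 4. Of 11 markers of smooth muscle and pericytes, cells that express Cox4i2, 1 rose and 1 fell, and their per-array means overlapped, at -0.19 to -0.02 in UCP1 transgenic and -0.20 to -0.03 in wild-type mice. Red cell markers rose in 3 of 3. Of 8 endothelial markers 0 rose and 1 fell, and of 5 measured among 6 leukocyte markers 0 rose and 1 fell. Of 5 fibroblast markers 2 rose and 0 fell, and of 2 measured among 5 cardiac markers 1 rose and 0 fell. Of 4 Schwann cell markers 2 rose and 0 fell, and 3 rose without the array labelled wild type 4. All of these counts stand beside 16.9% of all genes called higher and 16.1% lower. Under median centring the counts fell to 4 higher for white adipocyte, 0 for brown adipocyte and 1 for red cell markers, and 0 skeletal muscle markers were called lower and 0 smooth muscle and pericyte markers either way. The counts there stayed at 2 higher for fibroblast and 1 higher for cardiac markers, and were 0 either way for endothelial, leukocyte and Schwann cell markers. The part of these cells in the isoform values was not tested.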

How the data were processed

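The isoform genes and every gene list were chosen with earlier results of these data known. Total RNA of each mouse (200 ng) was labelled with Cy5 and hybridised against a Cy3 reference pool without dye swap, per the labels' protocols. With 1 array per mouse, p-values rest on the spread between arrays, in which mouse, labelling and array cannot be told apart. Per the file headers, the deposited scanner files hold spot and background intensity, other values (flags) and a log10 ratio made by the authors with Agilent Feature Extraction 10.5.1.1. The authors' deposited value table of 25583 rows was taken as log2 Cy5 values (correlation with the Cy5 signal of the same array 0.997 to 0.998). Its normalization, done together with other samples per the labels, is not given in the sources used here.

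Signals were background corrected with normexp (offset 50) and normalized by loess within arrays in limma 3.58.1 (R 4.3.3), with outlier-flagged spots left out. Values of a single channel were rebuilt from the loess-normalized ratios and the mean intensities, after quantile normalization of the mean intensities between arrays (Aquantile). The brightest probe well above background on at least 6 of 13 arrays stood for a gene. Genotypes were compared with lmFit and eBayes, two-sided, with Benjamini-Hochberg adjustment over 17257 genes at 0.05, no covariate, and the procedure was tested on simulated data. Text names all isoform genes, members of the lists, and, of the 5 genes most correlated with each muscle isoform, those with a gene name. Probe coordinates in the files are in mm9; promoter sequences are RefSeq's on GRCm38.p6. Alternatives were the background correction, centring, filters, probe choice, channel, value table, slide or replicate number as a block, and leaving out each mouse.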

Additional observations from a re-analysis of the deposited data

Results flagged for a closer look

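Of 28 groups of values tested, 2 held an array far from the others of its genotype, and about 5% of groups are expected to by chance. For Cox7a1 the lowest wild-type array was wild type 3, at 0.0156, where the next wild-type array read 0.32. The gap was 0.68 of the group's range, and the difference of Cox7a1 was -0.68 without it. For Ucp1 the highest wild-type array was the array labelled wild type 4, at 0.454, where the next read -2.82. The isoform differences without it stand in the text above.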

How the results depend on the processing

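The directions of Cox6a2, Cox7a1, Cox8b and Cox8a, and of the COX6A, COX7A and COX8 balances, were the same under every alternative run for them, within slides and without any 1 mouse (the balances were not computed with slide as a random block). Calls of Cox7a1, Cox8b and Cox8a were lost under median centring alone. Under median centring without loess, 1303 genes passed (79.7% of them higher, against 51.1% with loess), 1 isoform gene was called higher and 0 lower, and 0 other subunit genes, 1 assembly factor, 1 regulator and 10 fibre genes passed. There the COX4 balance was -0.37, and Cox4i1 (0.31) and Cox7a2l (0.28) turned. With Agilent's own log ratio 13 assembly factors passed, the balances were 1.05 (COX6A), -0.48 (COX7A), -0.69 (COX8) and -0.33 (COX4), and Cox4i1 turned to 0.017. With the authors' value table the COX4 balance was -0.33, and Cox4i1 (0.044) and Cox7a2l (0.072) turned. The mean over probes gave 0.015 for Cox7a2l. Within slide 1 the COX7A balance was -1.19, within slide 4 the COX4 balance was 0.13, and within slide 3 Cox7a2 was -0.028. The cause was not tested.

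Leaving out 1 mouse at a time gave 5138 to 5708 genes called, 2 to 4 isoform genes higher and 2 to 3 lower, 3 to 4 other subunits, 7 to 10 assembly factors, 7 regulators and 17 to 18 fibre genes, with balances of 0.73 to 0.87 (COX6A), -0.90 to -0.81 (COX7A), -0.93 to -0.84 (COX8) and -0.20 to -0.07 (COX4). With the replicate block 5369 genes passed and the isoform counts stayed at 3 higher and 2 lower. Same-numbered mice of the genotypes correlated at -0.23 to 0.23, and 1 of 6 best with its own number. This gave no sign that the numbers pair the mice, but weak correlation cannot exclude a pairing. Without a dye swap a dye effect on a probe cannot be measured, and the dim signal of Cox4i2 limits its precision.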

Other observations

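In the Cy3 channel, where all arrays hold the same pool, 59 of 17257 genes (0.342%) passed the same comparison and 0 of the 9 isoform genes did. The Cy3 difference was -0.12 ± 0.03 for Cox6a2 and -0.08 ± 0.03 for Cox6a1 (log2, SE). These Cy3 values were taken after loess and so do not measure the pool alone.

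The Cox7a1 probe covers 612 bases of the genome (mm9, chr7:30970337-30970948, plus strand), more than its 60 bases, so it reads across an intron. The probes of Cox6a2 (mm9, chr7:135349160-135349219) and Cox8b (mm9, chr7:148084852-148084911) each cover 60 genomic bases on the minus strand.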
